A study of Homo sapiens with 15 samples.

Results

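Plasma-membrane transporters set how much of each amino acid a cell can take up, and 10 genes that encode them were followed by name among the 55773 genes of an RNA-seq table from human HEK293-derived cells, an established embryonic kidney line. They were SLC7A5, SLC7A11, SLC3A2, SLC7A1, SLC7A3, SLC1A4, SLC1A5, SLC38A1, SLC38A2 and SLC6A9. There were 5 groups of 3 libraries each, from 2 experiments. The overexpression experiment used Flp-In T-REx 293 cells, a HEK293 derivative that carries a doxycycline-regulated transgene, treated with doxycycline at 1 µg/mL for 24 h to express Flag/HA-ZC3H7A, Flag/HA-ZC3H7B or the Flag/HA control. Both tagged proteins are CCCH zinc-finger proteins, a family whose members bind RNA. These cells were lysed in a hypotonic buffer for polysome work, and the poly(A) RNA came from a part of each lysate. The depletion experiment compared ZC3H7A/B-DD cells (DD), a ZC3H7A knockout with an shRNA against ZC3H7B, with Parental cells, wild-type with a control shRNA. Both had been selected with puromycin at 5 µg/mL and taken off it 2 passages before collection, and a company prepared their libraries with another protocol. The labels call the overexpression replicates independent. They do not say how many lines or clones stand behind a group, or whether the 3 samples of DD and of Parental were separate cultures, so p-values measure the spread between these samples.

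A membrane carries amino acids in families with overlapping substrates. SLC7A5 and SLC7A11 are light chains that reach the surface bound to the heavy chain SLC3A2 (CD98): SLC7A5 exchanges large neutral amino acids such as leucine, and SLC7A11 imports cystine in exchange for glutamate, which feeds glutathione synthesis. SLC7A1 and SLC7A3 carry arginine and lysine, SLC1A4 and SLC1A5 exchange small neutral amino acids and glutamine, SLC38A1 and SLC38A2 take up neutral amino acids with sodium, and SLC6A9 takes up glycine. Many of these genes are known targets of ATF4, the transcription factor of the integrated stress response, which binds with C/EBP partners to a composite element and is made when amino acids run short.

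Sequences of these genes that bear on the comparisons come first. Along 1 property of the coding sequence, how many codons end in A or T, transcripts differed between groups in these libraries. That percentage ran from 9.66% in SLC7A5 to 58.3% in SLC38A2, against a median of 39.3% over 19077 coding genes. For the members with a low and with a high share, the first stretch of 30 codons whose own share was closest to that of the whole coding sequence is printed, with each A or T at the end of a codon in capitals (GENCODE 29, GRCh38). It holds 3 such codons in SLC7A5, 6 in SLC6A9, 16 in SLC7A11 and 17 in SLC38A2.
SLC7A5 codons 1 to 30: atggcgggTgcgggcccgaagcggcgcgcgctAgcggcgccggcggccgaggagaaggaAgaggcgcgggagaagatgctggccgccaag
SLC6A9 codons 69 to 98: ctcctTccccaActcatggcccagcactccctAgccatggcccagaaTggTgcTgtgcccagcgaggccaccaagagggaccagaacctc
SLC7A11 codons 77 to 106: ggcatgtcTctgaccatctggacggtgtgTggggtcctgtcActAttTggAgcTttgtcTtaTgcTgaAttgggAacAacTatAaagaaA
SLC38A2 codons 27 to 56: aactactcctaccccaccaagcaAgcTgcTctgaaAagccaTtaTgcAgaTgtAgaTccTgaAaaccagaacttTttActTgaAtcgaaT

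Promoters were searched for the C/EBP-ATF response element written TGATGNAA, on both strands, and for no other motif. The search was added with the changes below already known. Of the 8 transporter genes with a promoter window in the RefSeq table, 5 held a match in at least 1 window, against 4.46% of 27305 genes with a window. By window it was 5 of 14, against 3.62% of 35116. SLC6A9, SLC7A5 and SLC38A2 had a window but no match, and SLC7A3 and SLC7A11 had no window to search. Genes with 3 windows, as SLC3A2 and SLC1A5 have, held a match in 7.95% of cases. The 30 bases around each match are shown on the gene's strand, with the match or its reverse complement in capitals (RefSeq, GRCh38.p14). A match describes these letters only and is not evidence that a factor binds there.
SLC3A2 chr11:62881719-62881748, plus strand: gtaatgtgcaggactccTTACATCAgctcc
SLC7A1 chr13:29595663-29595692, minus strand: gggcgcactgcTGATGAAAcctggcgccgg
SLC1A4 chr2:64989381-64989410, plus strand: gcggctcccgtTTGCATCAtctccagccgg
SLC1A5 chr19:46784893-46784922, minus strand: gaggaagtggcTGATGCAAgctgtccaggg
SLC38A1 chr12:46266502-46266531, minus strand: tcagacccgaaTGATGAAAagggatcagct

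Values are size-factor-normalized read counts from the authors' table, set side by side only within an experiment, and groups are given as mean ± SD over 3 libraries. Library totals were 45.5 to 57.6 M reads in overexpression and 12.2 to 15.5 M reads in depletion. ZC3H7A averaged 11192 ± 1492 with tagged ZC3H7A and 3259 ± 102 in the control, and ZC3H7B 27142 ± 815 with tagged ZC3H7B and 5938 ± 114 in the control. In the libraries labelled DD, ZC3H7B averaged 1084 ± 84.1, against 6463 ± 505 in Parental, while ZC3H7A had 1658 ± 106 in DD and 1599 ± 78.7 in Parental (limma log2 fold change 0.05 ± 0.0770 SE, adjusted p = 0.666). Counts of this kind cannot tell whether protein was still made from the knocked-out gene. Of the 10 markers of HEK293 cells, 10 averaged at least 10 in each overexpression group and 9 in DD and in Parental, and the leukocyte markers PTPRC and CD3E were at 0 in DD and Parental. Against their group means, levels in ZC3H7A replicate 3 climbed with the percentage of A- or T-ending codons, by 0.06 log2 units per 10 percentage points, while ZC3H7A replicates 1 and 2 had -0.03 and -0.04. ZC3H7B replicates 1 and 3 had -0.03 and 0.02, Parental replicates 1 and 3 had 0.03 and -0.03, the DD libraries -0.02 to 0.01 and the control libraries -0.00099 to 0.00071. Calls that changed without one of these libraries are given beside the result. Since these are bulk samples, fewer cells of a type and less RNA per cell cannot be told apart.

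The first comparison asked which transporter transcripts differ when ZC3H7A is overexpressed. With ZC3H7A, 6 of the 9 tested transporters rose, 2 fell and 1 did not pass the test (limma, Benjamini-Hochberg adjusted p under 0.05 over 17673 genes), while 34.7% of all tested genes rose and 41.2% fell. SLC7A5, SLC1A5 and SLC6A9 rose by at least 2-fold, as 4.02% of all genes did, and 0 fell that far, against 10.3% of all genes. The median log2 fold change was 0.53 over the 9 transporters and -0.07 over all genes. ZC3H7A and control libraries did not overlap for 8 of the 9, against 77.9% of all genes. The tenth, SLC7A3, had 0 to 2 reads per overexpression library and 0 in every depletion library and was not tested.

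With ZC3H7B, the same 6 transporters rose and the other 3 fell, while 32.0% of all genes rose and 37.6% fell. SLC6A9 alone rose by at least 2-fold, as 1.91% of all genes did, and 0 fell that far, against 7.86% of all genes. The median log2 fold change was 0.55 over the transporters and -0.06 over all genes. No transporter had overlapping ZC3H7B and control libraries, against 77.1% of all genes without overlap. The 2 overexpressions share their control libraries, so their folds are given side by side and the likeness between them is not read as a result. The balance of calls over all genes moved with the alternatives. With ZC3H7A it was 6135 higher and 7277 lower as reported, 5869 and 4787 with the trend with codon endings removed from each library, 6880 and 6874 with TMM scaling, and 5250 and 8918 with library totals. With ZC3H7B it was 5648 higher and 6647 lower as reported, 5864 and 4446 with the trend removed, 6731 and 5767 with TMM scaling, 6366 and 6047 with edgeR, 5948 and 5719 with DESeq2, and 4777 and 8069 with library totals.

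In the depletion experiment 8 of the 9 tested transporters fell in DD and 0 rose, while 14.8% of 18494 tested genes fell and 14.7% rose. SLC7A11, SLC6A9 and SLC7A1 fell by at least 2-fold, as 2.61% of all genes did, and 1.66% of all genes rose that far. The median log2 fold change was -0.60 over the transporters and 0.01 over all genes. DD and Parental libraries did not overlap for those 8, against 43.0% of all genes. Leaving out a library in turn left 6 to 8 transporters lower in DD, with 7 without Parental replicate 1 and 8 without Parental replicate 3.

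SLC7A1, SLC7A5, SLC3A2, SLC1A5 and SLC6A9 thus rose in overexpression of either protein and fell in DD. These are 5 of the 9, against 5.82% of the 16165 genes tested in both experiments for ZC3H7A and 6.30% for ZC3H7B. SLC38A1 and SLC38A2 were lower in all 3 comparisons as reported.

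**Figure D1:**
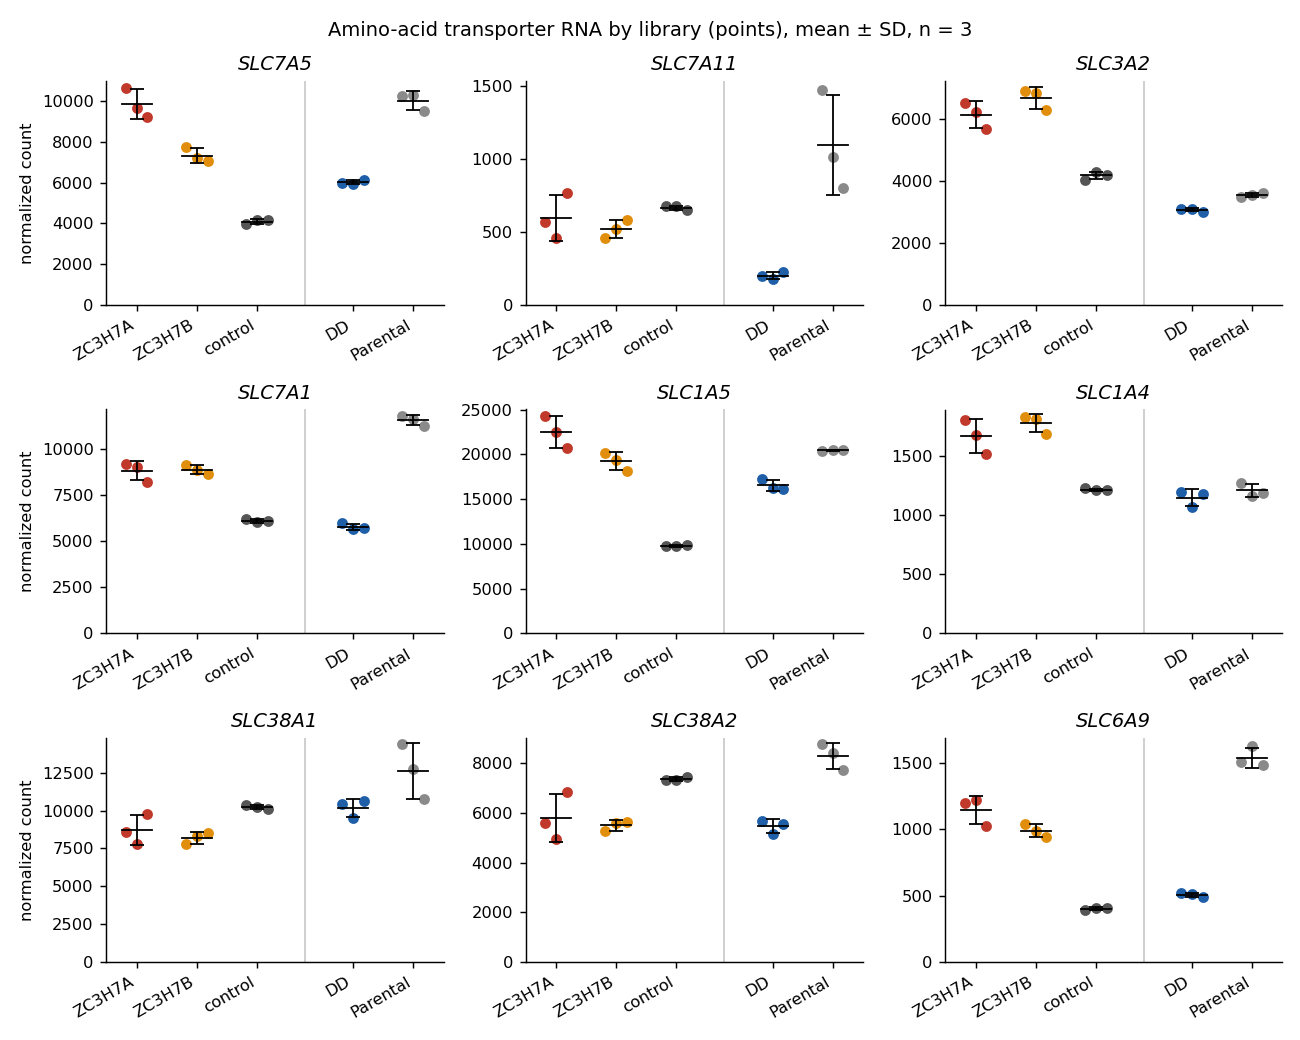
Normalized counts of the 9 detected transporters, with a panel per gene, a point per library and bars for mean ± SD (n = 3); the y axis starts at 0 and a vertical line parts the overexpression from the depletion experiment. SLC7A5 averaged 9857 with ZC3H7A and 7341 with ZC3H7B, above 4095 in the control, and SLC7A11 averaged 199 in DD, below 1092 in Parental.

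**Figure D2:**
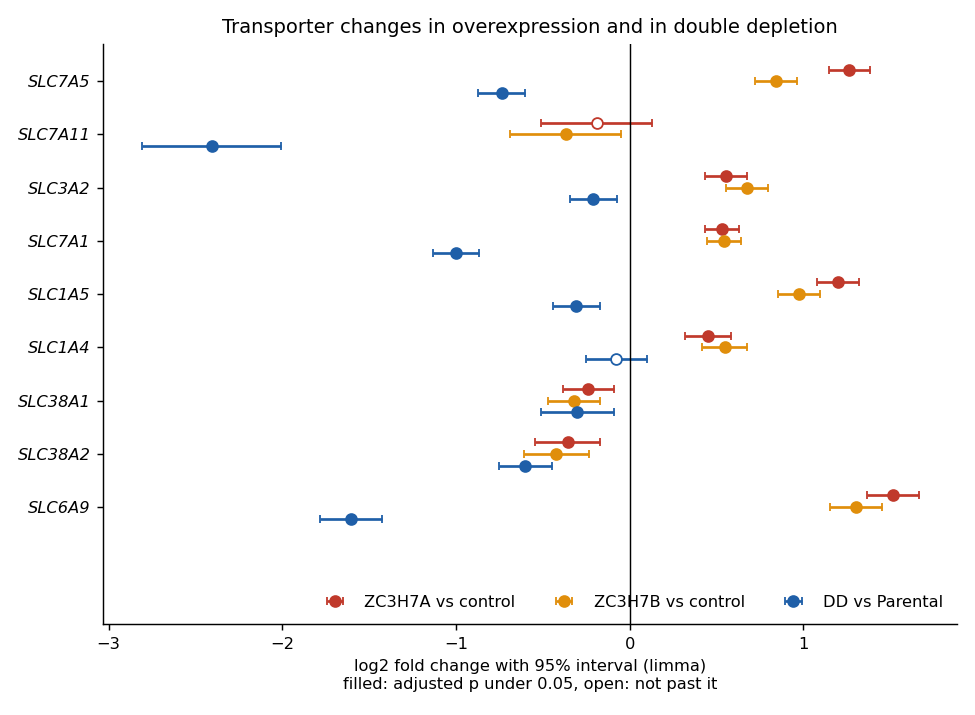
Log2 fold changes of the 9 tested transporters (x axis) by gene, with 95% intervals from limma; filled points passed an adjusted p of 0.05. SLC7A5, SLC3A2, SLC7A1, SLC1A5 and SLC6A9 lie right of 0 in both overexpressions and left of 0 in DD, and SLC7A11 lies farthest left, at -2.41, in DD.

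SLC7A5 (chromosome 16, 87830023 to 87869488, minus strand, GENCODE 29 on GRCh38, as for the other genes below) encodes the leucine-carrying light chain and was among the carriers that rose most in overexpression. Its normalized count was 10670.5, 9679 and 9220.3 in the ZC3H7A libraries, 7742, 7197 and 7085 in the ZC3H7B libraries and 3975, 4163 and 4148 in the controls. The 3 groups did not overlap, and each ZC3H7A library lay above each ZC3H7B library. The rise was 2.40-fold with ZC3H7A (limma log2 fold change 1.26 ± 0.0548 SE, adjusted p = 3.26e-09) and 1.79-fold with ZC3H7B (limma log2 fold change 0.84 ± 0.0548 SE, adjusted p = 9.95e-08), and ZC3H7A exceeded ZC3H7B directly (limma log2 fold change 0.42 ± 0.0548 SE, adjusted p = 6.17e-05). In depletion it had 5971, 5961 and 6129.6 in DD and 10291, 10327 and 9511 in Parental. All DD libraries were below all Parental libraries, by 1.67-fold (limma log2 fold change -0.74 ± 0.0622 SE, adjusted p = 6.61e-06). A near copy, SLC7A5P1, could share reads with it, depending on how multiply mapped reads were counted. Its normalized count averaged 63.6 ± 2.46 with ZC3H7A, 83.2 ± 8.76 with ZC3H7B and 39.2 ± 1.93 in the control. In depletion SLC7A5P1 averaged 65.2 ± 10.6 in DD and 56.6 ± 14.5 in Parental, which overlapped (limma log2 fold change 0.22 ± 0.258 SE, adjusted p = 0.561). SLC7A5P2 was listed at 0 in every library.

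SLC7A11 (chromosome 4, 138164097 to 138242349, minus strand), the cystine importer, fell most in DD of all 9 transporters. It had 197, 178 and 223 normalized counts in the DD libraries, against 1468, 1011 and 797 in the Parental libraries. Parental libraries were widely spread, yet the lowest of them was above the highest DD library. The fall was 5.31-fold (limma log2 fold change -2.41 ± 0.184 SE, adjusted p = 3.27e-06), and 0.627% of all tested genes had a lower fold change. Leaving out each library in turn gave log2 fold changes between -2.61 and -2.17. In overexpression it did not follow SLC7A5. It had 568, 456 and 766 with ZC3H7A, 454, 519 and 581 with ZC3H7B and 674, 674 and 649 in the control. The ZC3H7A libraries spanned the controls, with replicate 3 above them, and no change was called (limma log2 fold change -0.19 ± 0.146 SE, adjusted p = 0.253, 95% interval -0.51 to 0.13). Without ZC3H7A replicate 3 the log2 fold change was -0.39 (limma adjusted p = 0.00138). All ZC3H7B libraries were below all controls (limma log2 fold change -0.37 ± 0.146 SE, adjusted p = 0.0406). That call was lost with TMM scaling, edgeR, DESeq2, removal of the codon-ending trend and 5 of the 6 left-out libraries (adjusted p up to 0.150). Its antisense partner SLC7A11-AS1 had 0 to 5 reads per library.

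SLC3A2 (chromosome 11, 62856102 to 62888875, plus strand), the heavy chain of both, rose in both overexpressions and fell slightly in DD. Its counts were 6519, 6205 and 5684 with ZC3H7A, 6912, 6828 and 6278 with ZC3H7B and 4039, 4282 and 4195 in the control. The controls lay below every library of the other groups, and ZC3H7A and ZC3H7B overlapped. The rises were 1.47-fold with ZC3H7A (limma log2 fold change 0.55 ± 0.0551 SE, adjusted p = 1.95e-06) and 1.60-fold with ZC3H7B (limma log2 fold change 0.68 ± 0.0551 SE, adjusted p = 5.77e-07). DD libraries had 3083, 3104 and 3004, against 3486, 3535 and 3605 in Parental. They did not overlap, but the step was small (limma log2 fold change -0.21 ± 0.0614 SE, adjusted p = 0.0232) and was not called with the replicate block (adjusted p = 0.0770) or with 4 of the 6 left-out libraries (up to 0.0945). SNHG1, which lies beside SLC3A2 on the opposite strand without overlap, had log2 fold changes of -0.19 with ZC3H7A, 0.03 with ZC3H7B (not called) and -0.48 in DD.

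Per kb of annotated exon, the light chains SLC7A5 and SLC7A11 summed to 1.83, 1.74 and 1.84 times the heavy chain SLC3A2 in the ZC3H7A libraries, 1.26, 1.19 and 1.28 times in the ZC3H7B libraries and 1.16, 1.15 and 1.16 times in the controls. This ratio was higher in each overexpression library than in any control. In DD it was 2.15, 2.13 and 2.27, against 3.45, 3.34 and 3.00 in Parental, without overlap. SLC7A11 alone was 0.0343, 0.0307 and 0.0399 of SLC3A2 in DD and 0.226, 0.153 and 0.119 in Parental. Other light chains of SLC3A2, among them SLC7A6, SLC7A8 and SLC7A10, were left out of the sum, and these ratios depend on the exon lengths used. In normalized counts SLC7A6 averaged 2597 in DD and 3005 in Parental, SLC7A8 696 and 914, and SLC7A10 1.42 and 1.47. SLC7A6 averaged 1154 with ZC3H7A, 949 with ZC3H7B and 916 in the control.

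Of the cationic transporters, SLC7A1 (chromosome 13, 29509410 to 29595688, minus strand), the main arginine carrier of many cell types, rose to nearly the same level in both overexpressions. It had 9189, 9043 and 8217 with ZC3H7A, 9117, 8859 and 8635 with ZC3H7B and 6189, 6019 and 6068 in the control. The 2 overexpressions overlapped and both lay clear of the control, 1.45-fold (limma log2 fold change 0.53 ± 0.0456 SE, adjusted p = 5.67e-07) and 1.46-fold (limma log2 fold change 0.54 ± 0.0456 SE, adjusted p = 7.47e-07) higher. Between ZC3H7A and ZC3H7B the log2 difference was -0.01, with a 95% interval of -0.11 to 0.09. DD libraries had 5971, 5639 and 5729, against 11783, 11644 and 11267 in Parental. Each DD library was well below each Parental library, by 2.00-fold (limma log2 fold change -1.001 ± 0.0602 SE, adjusted p = 5.38e-07). SLC7A3 (chromosome X, 70925582 to 70931125, minus strand), the other cationic carrier listed, was close to absent throughout.

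SLC1A5 (chromosome 19, 46774883 to 46788594, minus strand), a glutamine carrier, had 24301, 22513 and 20781 with ZC3H7A, 20213, 19354 and 18192 with ZC3H7B and 9720.0, 9738 and 9883 in the control. The groups did not overlap. It rose 2.30-fold with ZC3H7A (limma log2 fold change 1.20 ± 0.0550 SE, adjusted p = 4.41e-09) and 1.97-fold with ZC3H7B (limma log2 fold change 0.98 ± 0.0550 SE, adjusted p = 3.48e-08), and ZC3H7A was higher than ZC3H7B (limma log2 fold change 0.23 ± 0.0550 SE, adjusted p = 0.00556). In DD it had 17295, 16208 and 16152, against 20398, 20538 and 20487 in Parental, a fall of 1.24-fold without overlap (limma log2 fold change -0.31 ± 0.0615 SE, adjusted p = 0.00288). Its relative SLC1A4 (chromosome 2, 64988477 to 65023865, plus strand), which exchanges alanine, serine and cysteine, had smaller folds. Values of SLC1A4 were 1805, 1672 and 1518 with ZC3H7A, 1827, 1808 and 1686 with ZC3H7B and 1224, 1208 and 1210.1 in the control, with no overlap between either overexpression and the control. It rose 1.37-fold (limma log2 fold change 0.45 ± 0.0604 SE, adjusted p = 2.40e-05) and 1.46-fold (limma log2 fold change 0.55 ± 0.0604 SE, adjusted p = 6.81e-06). In depletion SLC1A4 overlapped, with 1195, 1064 and 1175 in DD and 1268, 1164 and 1187 in Parental (limma log2 fold change -0.08 ± 0.0802 SE, adjusted p = 0.517, 95% interval -0.25 to 0.10).

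The sodium-coupled carriers SLC38A1 (chromosome 12, 46183063 to 46270017, minus strand) and SLC38A2 (chromosome 12, 46358189 to 46372867, minus strand) were the called members that fell in overexpression with both proteins. SLC38A1 had 8585, 7792 and 9807 with ZC3H7A, 7786, 8299 and 8526 with ZC3H7B and 10377, 10233 and 10129 in the control. Every overexpression library lay below every control, with ZC3H7A replicate 3 nearest to them (limma log2 fold change -0.24 ± 0.0681 SE, adjusted p = 0.00695 for ZC3H7A, and -0.32 ± 0.0681 SE, adjusted p = 0.00112 for ZC3H7B). SLC38A2, which is also known to respond to amino-acid shortage, had 5583, 4969 and 6843 with ZC3H7A, 5264, 5581 and 5653 with ZC3H7B and 7318, 7327 and 7457 in the control. Again no library overlapped, and ZC3H7A replicate 3 was nearest (limma log2 fold change -0.36 ± 0.0868 SE, adjusted p = 0.00242 for ZC3H7A, and -0.42 ± 0.0868 SE, adjusted p = 9.01e-04 for ZC3H7B). Without ZC3H7A replicate 3 the ZC3H7A log2 fold changes were -0.33 for SLC38A1 and -0.48 for SLC38A2. With the codon-ending trend removed they were -0.01 and 0.02, and neither was called. In depletion SLC38A2 had 5692, 5153 and 5557 in DD and 8770.3, 8404 and 7725 in Parental, a fall of 1.52-fold without overlap (limma log2 fold change -0.60 ± 0.0702 SE, adjusted p = 7.63e-05). SLC38A1 had 10442, 9484 and 10622 in DD and 14419, 12740.5 and 10744 in Parental. The highest DD library lay just under the lowest Parental library, and the fall (limma log2 fold change -0.30 ± 0.0965 SE, adjusted p = 0.0337) was not called with library-total scaling or with 5 of the 6 left-out libraries (adjusted p up to 0.134).

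SLC6A9 (chromosome 1, 43991500 to 44031467, minus strand), the glycine carrier, had the largest rise of the 9 in both overexpressions. Its counts were 1201, 1219.6 and 1026 with ZC3H7A, 1039.7, 988 and 945 with ZC3H7B and 388, 407 and 406 in the control. Controls were far below all other libraries, and ZC3H7A replicate 3 fell within the ZC3H7B range. The rises were 2.86-fold (limma log2 fold change 1.51 ± 0.0682 SE, adjusted p = 4.16e-09) and 2.47-fold (limma log2 fold change 1.30 ± 0.0682 SE, adjusted p = 2.25e-08). DD libraries had 519, 512 and 489, against 1508, 1629.5 and 1490.1 in Parental, with no overlap and a 3.04-fold fall (limma log2 fold change -1.60 ± 0.0809 SE, adjusted p = 1.81e-07).

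The direct comparison of ZC3H7A with ZC3H7B called 3 of the 9 transporters higher with ZC3H7A and 0 lower, against 23.9% and 20.4% of all genes. At 2-fold 0 were higher or lower, against 1.79% and 1.50% of all genes. The 3 called were SLC7A5, SLC1A5 and SLC6A9, and the first 2 did not overlap, against 49.2% of all genes without overlap. With the codon-ending trend removed the differences were 0.24 for SLC7A5 and 0.11 for SLC1A5 (limma adjusted p = 0.0308), both still called, and SLC3A2 (-0.18) and SLC1A4 (-0.16) were then called lower with ZC3H7A. SLC6A9 differed by 0.21 ± 0.0682 SE, adjusted p = 0.0252 (limma), a call that was lost in the fit of these 2 groups alone (adjusted p = 0.0544), with the codon-ending trend removed and without any of 4 libraries. For SLC3A2 the log2 difference was -0.12 (95% interval -0.24 to -0.0018), for SLC1A4 -0.09 (-0.23 to 0.04) and for SLC7A11 0.18 (-0.14 to 0.50). None of these passed the test as reported, nor did SLC38A1, at 0.08 (-0.06 to 0.23), or SLC38A2, at 0.06 (-0.12 to 0.25). With single libraries left out, SLC3A2 was called lower without ZC3H7A replicate 1 (-0.17, limma adjusted p = 0.0378) or ZC3H7B replicate 3 (-0.17, limma adjusted p = 0.0449), and without ZC3H7A replicate 2 SLC7A11 (0.35, limma adjusted p = 0.0336) and SLC38A1 (0.16, limma adjusted p = 0.0439) were called higher.

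Levels can be ordered between genes only per length, here as normalized count per kb of annotated exon. SLC1A5 ranked first in every group, with means of 6762 with ZC3H7A, 5778 with ZC3H7B, 2935 in the control, 4967 in DD and 6145 in Parental. SLC7A5 ranked second, with 2077 with ZC3H7A, 1547 with ZC3H7B, 1269 in DD and 2117 in Parental, except in the control, where it had rank 4 with 863 behind SLC38A2 (1116) and SLC38A1 (1023). In the middle, SLC3A2 and SLC7A1 overlapped with ZC3H7A and in the control, and SLC38A1 and SLC38A2 with ZC3H7A, with ZC3H7B and in Parental, so the order of these neighbours is not set there. SLC6A9 and SLC1A4 came next, with SLC6A9 above SLC1A4 in Parental and below it or overlapping it elsewhere. SLC7A11 was ninth throughout, with 61.8 with ZC3H7A, 53.7 with ZC3H7B, 69.0 in the control, 20.7 in DD and 113 in Parental. All 10 genes together took 0.235%, 0.223% and 0.227% of reads with ZC3H7A, 0.214%, 0.211% and 0.205% with ZC3H7B and 0.166%, 0.165% and 0.165% in the control. In depletion they took 0.172%, 0.163% and 0.172% in DD and 0.248%, 0.236% and 0.224% in Parental. Both overexpressions lay above the control and DD lay below Parental, without overlap.

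**Figure D3:**
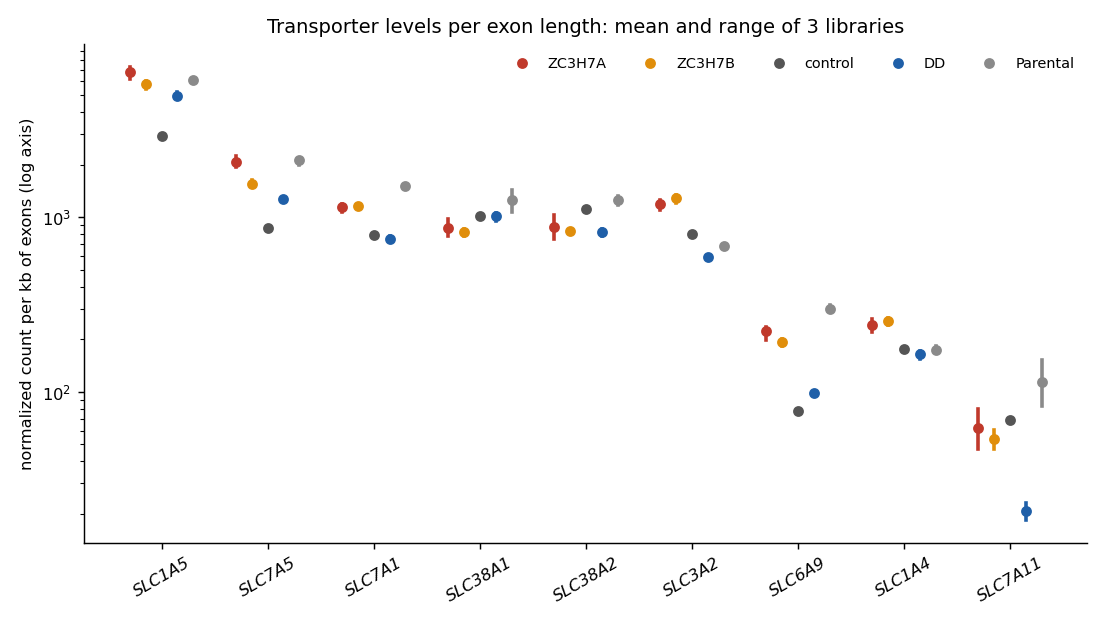
Normalized count per kb of annotated exon (log axis) for the 9 detected transporters in the 5 groups, as the mean (point) and the range of 3 libraries (line). SLC1A5 is highest in every group, and SLC7A11 lowest, with means of 20.7 in DD and 113 in Parental.

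The direction of the members in overexpression ran with their codon endings. All 6 members below 50% of codons ending in A or T (SLC7A5, SLC6A9, SLC1A5, SLC1A4, SLC7A1 and SLC3A2, 9.66% to 31.9%) rose with both proteins. The 3 above it (SLC7A11 at 52.3%, SLC38A1 at 53.9% and SLC38A2 at 58.3%) had log2 fold changes of -0.36 to -0.19 with ZC3H7A and -0.42 to -0.32 with ZC3H7B. That divide was set after the values were seen. The same slope ran through all coding genes. In the quintile with the lowest share, which holds SLC7A5, SLC6A9 and SLC1A5, the median log2 fold change was 0.36 with ZC3H7A and 0.22 with ZC3H7B. In the quintile with the highest share, which holds SLC38A2, it was -0.59 with ZC3H7A and -0.49 with ZC3H7B, and 81.4% of genes there fell with ZC3H7A. In DD the medians of the quintiles lay between 0.02 and 0.09. Whether codon endings themselves play a part in these differences was not tested.

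With that trend removed from each library, the 6 members that rose were still called with both proteins, at log2 fold changes of 0.26 to 1.21 with ZC3H7A and 0.41 to 1.13 with ZC3H7B. SLC6A9 had 1.21 with ZC3H7A and 1.13 with ZC3H7B, SLC1A5 0.91 and 0.80, and SLC7A5 0.88 and 0.65, in the same order of proteins. SLC7A1 had 0.34 and SLC1A4 0.26 with ZC3H7A. Of the 3 others, SLC38A1 with ZC3H7B was still called (log2 fold change -0.11, limma adjusted p = 0.0356), and the remaining values lay between -0.19 and 0.02 without a call. DD values barely moved, with SLC7A11 at -2.42 and SLC6A9 at -1.62.

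**Figure D4:**
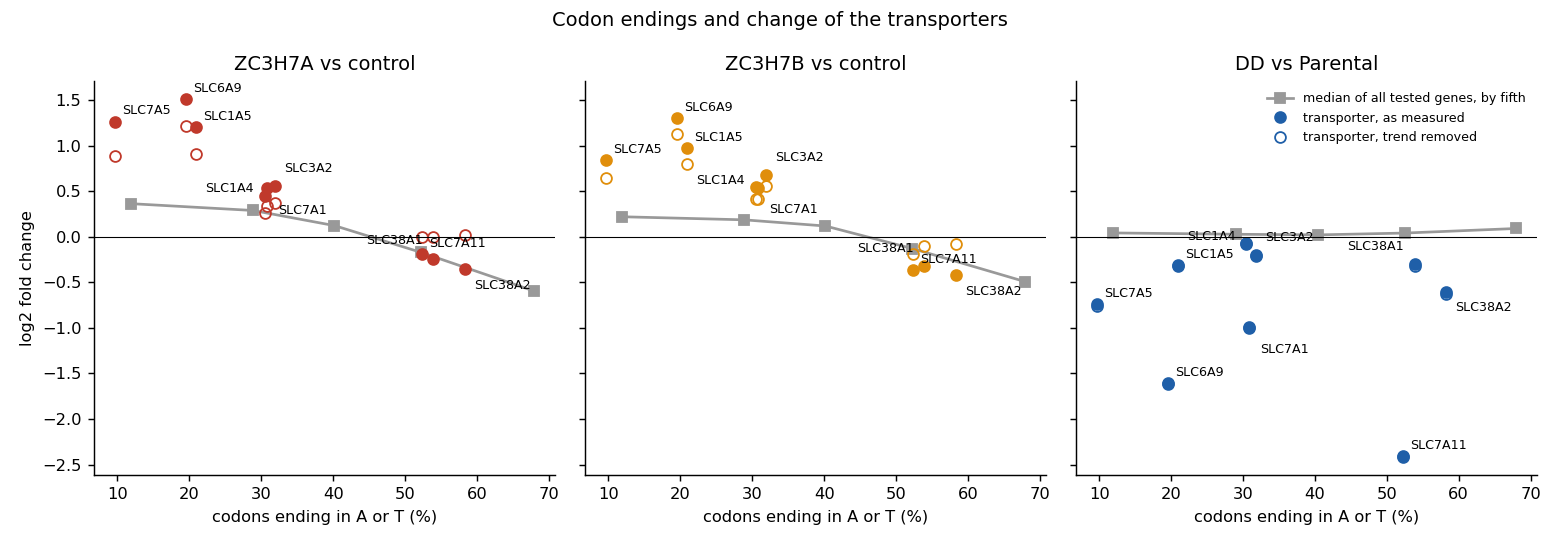
Log2 fold change (y axis) against the percentage of codons ending in A or T (x axis) for the 9 tested transporters in 3 comparisons, as measured (filled) and with the trend removed (open), with grey squares for the median of all tested genes in each quintile. The grey line falls from 0.36 to -0.59 with ZC3H7A and is nearly flat in DD, where SLC7A11 (-2.41) and SLC6A9 (-1.60) lie far below it.

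Shares of calls among other amino-acid transporters lay near those of all genes with ZC3H7A. Of 43 in the table, 25 were tested with ZC3H7A, where 7 (28.0%) rose, 10 (40.0%) fell and 8 did not pass, against 34.7% and 41.2% of all genes, with a median log2 fold change of -0.09 beside -0.07 over all genes. With ZC3H7B 6 (24.0%) rose, 10 (40.0%) fell and 9 did not pass, against 32.0% and 37.6% of all genes (median -0.06, all genes -0.06). In DD 24 were tested, of which 3 (12.5%) rose, 5 (20.8%) fell and 16 did not pass, against 14.7% and 14.8% of all genes (median 0.09, all genes 0.01). With ZC3H7A the neutral amino-acid carrier SLC43A2 rose (limma log2 fold change 0.87 ± 0.0673 SE, adjusted p = 2.38e-07), as did SLC7A10 (1.18 ± 0.0988 SE, adjusted p = 4.81e-07), another light chain of SLC3A2, the taurine carrier SLC6A6 (0.46 ± 0.0456 SE, adjusted p = 1.98e-06) and the glutamate carrier SLC1A3 (0.47 ± 0.05003 SE, adjusted p = 3.41e-06). SLC43A2 had 1221, 1189 and 1017 with ZC3H7A and 608, 620.5 and 637 in the control, without overlap. Removing the codon-ending trend left SLC43A2 at 0.53 and SLC6A6 at 0.25 with ZC3H7A. With ZC3H7B the 4 lowest adjusted p-values all belonged to falls. These were the aromatic amino-acid carrier SLC16A10 (limma log2 fold change -0.995 ± 0.0465 SE, adjusted p = 1.11e-08), the glutamate carrier SLC1A1 (-0.52 ± 0.0462 SE, adjusted p = 1.17e-06), the cationic carrier SLC7A2 (-0.53 ± 0.0495 SE, adjusted p = 1.70e-06) and the branched-chain amino-acid carrier SLC6A15 (-0.86 ± 0.0802 SE, adjusted p = 1.79e-06). The same 4 led the direct comparison, higher with ZC3H7A than with ZC3H7B by 0.65, 0.71, 0.64 and 1.16 on the log2 scale, and there 11 of 25 were higher, 4 lower and 10 did not pass, against 23.9% higher and 20.4% lower of all genes. With the codon-ending trend removed SLC6A15 had -0.38 with ZC3H7B, and with ZC3H7A, where it rose (0.30), it had 0.86. SLC16A10 had 1594, 1598 and 1726 with ZC3H7A, 1013, 1045 and 1071 with ZC3H7B and 2070.3, 2049.8 and 2119 in the control, 3 groups without overlap. In DD the taurine carrier SLC6A6 (limma log2 fold change -0.72 ± 0.0696 SE, adjusted p = 1.79e-05) and SLC1A3 (-0.44 ± 0.0866 SE, adjusted p = 0.00262) fell, both of which had risen with ZC3H7A, while SLC38A10 (0.49 ± 0.0731 SE, adjusted p = 4.34e-04) and the lysosomal arginine sensor SLC38A9 (0.66 ± 0.114 SE, adjusted p = 0.00123) rose.

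Regulators that are known to act on the expression or turnover of these carriers were counted next. Of 13 tested, 7 (53.8%) rose, 5 (38.5%) fell and 1 did not pass with ZC3H7A, against 34.7% and 41.2% of all genes, with a median log2 fold change of 0.17 beside -0.07 over all genes. With ZC3H7B 8 (61.5%) rose, 4 (30.8%) fell and 1 did not pass, against 32.0% and 37.6% (median 0.39, all genes -0.06). In DD 1 (7.69%) rose, 7 (53.8%) fell and 5 did not pass, against 14.7% and 14.8% (median -0.23, all genes 0.01). ATF4 had 17383, 17154 and 16224 with ZC3H7A, 15132, 14887 and 14354 with ZC3H7B and 9969.6, 10451 and 10129.5 in the control. All overexpression libraries were above all controls (limma log2 fold change 0.73 ± 0.0394 SE, adjusted p = 1.38e-08 for ZC3H7A, and 0.54 ± 0.0394 SE, adjusted p = 2.45e-07 for ZC3H7B). In depletion it had 9773, 9707 and 9854 in DD and 20234, 21288 and 18507 in Parental, 2.04-fold lower and with no overlap (limma log2 fold change -1.03 ± 0.0674 SE, adjusted p = 9.79e-07). Its transcript level is a partial view, since ATF4 is controlled largely in translation. CEBPB, a partner of ATF4, rose with ZC3H7A (limma log2 fold change 1.39 ± 0.0463 SE, adjusted p = 7.80e-10) and ZC3H7B (1.10 ± 0.0463 SE, adjusted p = 5.67e-09), as did KEAP1, the adaptor that marks NFE2L2 for degradation (0.96 ± 0.0477 SE, adjusted p = 7.67e-09 with ZC3H7A, and 0.73 ± 0.0477 SE, adjusted p = 1.05e-07 with ZC3H7B). Without the codon-ending trend KEAP1 had 0.64 with ZC3H7A. NFE2L2, which drives SLC7A11 in many cells and is named here after its values were seen, fell with ZC3H7A (-0.37) and ZC3H7B (-0.39), but with the codon-ending trend removed it turned to 0.13 with ZC3H7A, called higher (limma adjusted p = 0.00517), and to 0.05 with ZC3H7B (limma adjusted p = 0.244). MYC, known to raise SLC7A5 and SLC1A5, had 4942, 3966 and 4589 with ZC3H7A, 2695, 2558 and 2433 with ZC3H7B and 1596, 1711 and 1678 in the control. These groups did not overlap (limma log2 fold change 1.43 ± 0.0712 SE, adjusted p = 7.80e-09 for ZC3H7A, and 0.81 ± 0.0712 SE, adjusted p = 2.69e-06 between ZC3H7A and ZC3H7B). TRIB3, a pseudokinase that ATF4 is known to induce, rose with ZC3H7A (limma log2 fold change 1.04 ± 0.0664 SE, adjusted p = 5.25e-08) and with ZC3H7B (0.84 ± 0.0664 SE, adjusted p = 4.49e-07).

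In DD, MYC (limma log2 fold change -1.30 ± 0.0820 SE, adjusted p = 8.02e-07), TRIB3 (-0.97 ± 0.0799 SE, adjusted p = 5.64e-06) and DDIT3, the stress factor CHOP (-1.74 ± 0.153 SE, adjusted p = 9.56e-06), fell beside ATF4. DDIT3 had 108, 104 and 90.6 in DD and 399.7, 303 and 318 in Parental, without overlap. Between the overexpressions 6 of the 13 were higher with ZC3H7A, 4 lower and 3 did not pass, against 23.9% higher and 20.4% lower of all genes (median 0.06), with CEBPB higher (limma log2 fold change 0.29 ± 0.0463 SE, adjusted p = 2.98e-04, but 0.08 and adjusted p = 0.120 with the codon-ending trend removed) and ATF3, a stress-induced repressor (-0.58 ± 0.0509 SE, adjusted p = 2.67e-06), and the ubiquitin ligase NEDD4L (-0.38 ± 0.0447 SE, adjusted p = 2.78e-05) lower. Whether these regulators act on the carriers here was not tested.

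**Figure D5:**
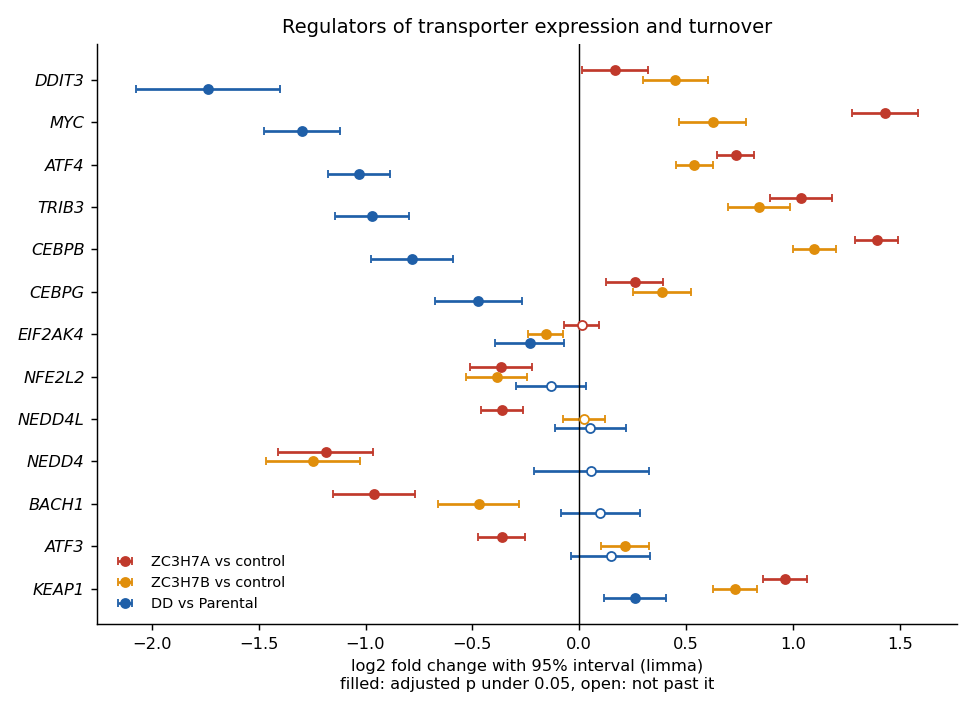
Log2 fold changes (x axis) of the 13 regulators with 95% intervals from limma, for ZC3H7A against control, ZC3H7B against control and DD against Parental; filled points passed an adjusted p of 0.05. ATF4 stands at 0.73 with ZC3H7A, 0.54 with ZC3H7B and -1.03 in DD, and MYC at 1.43, 0.62 and -1.30.

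Amino acids that the carriers bring in are sensed upstream of the kinase complex mTORC1. Of 28 genes of that machinery, 26 were tested in overexpression. With ZC3H7A 10 (38.5%) rose, 11 (42.3%) fell and 5 did not pass, against 34.7% and 41.2% of all genes (median log2 fold change -0.05, all genes -0.07). With ZC3H7B 14 (53.8%) rose, 9 (34.6%) fell and 3 did not pass, against 32.0% and 37.6% (median 0.18, all genes -0.06). Of 27 tested in DD, 10 (37.0%) rose, 5 (18.5%) fell and 12 did not pass, against 14.7% and 14.8% (median 0.08, all genes 0.01). Between the overexpressions 4 were higher with ZC3H7A, 7 lower and 15 did not pass, against 23.9% higher and 20.4% lower of all genes (median -0.07, all genes 0.0083). MTOR, the kinase itself, had 4332, 4402 and 4175 with ZC3H7A, 7195, 7177 and 7162 with ZC3H7B and 6288, 6097 and 5876 in the control. ZC3H7A libraries were the lowest and ZC3H7B libraries the highest (limma log2 fold change -0.50 ± 0.0387 SE, adjusted p = 2.42e-07 for ZC3H7A, and -0.74 ± 0.0387 SE, adjusted p = 4.77e-08 between ZC3H7A and ZC3H7B). It was also lower in DD, with 4747, 4795 and 4729 against 7824, 7775 and 8141 in Parental (limma log2 fold change -0.73 ± 0.0592 SE, adjusted p = 5.01e-06). SESN2, a leucine sensor that ATF4 is known to induce, fell in DD (limma log2 fold change -0.84 ± 0.0852 SE, adjusted p = 2.78e-05) and rose with ZC3H7B (0.55 ± 0.0543 SE, adjusted p = 2.68e-06). With ZC3H7A it was not called against the control (limma log2 fold change -0.09 ± 0.0543 SE, adjusted p = 0.137). It was lower with ZC3H7A than with ZC3H7B (-0.64 ± 0.0543 SE, limma adjusted p = 1.90e-06). With the codon-ending trend removed SESN2 had -0.38 with ZC3H7A, called lower (limma adjusted p = 2.15e-07), and 0.38 with ZC3H7B. Its relative SESN1 fell with ZC3H7A (limma log2 fold change -0.88 ± 0.0525 SE, adjusted p = 3.10e-08) and with ZC3H7B (-0.40 ± 0.0525 SE, adjusted p = 2.86e-05) and was lower with ZC3H7A than with ZC3H7B (-0.48). With the codon-ending trend removed SESN1 had -0.32 with ZC3H7A, and with ZC3H7B it turned to 0.08 without a call (limma adjusted p = 0.140). SESN3 fell with ZC3H7A (limma log2 fold change -0.79 ± 0.0857 SE, adjusted p = 4.24e-06) and with ZC3H7B (-1.47 ± 0.0857 SE, adjusted p = 4.44e-08) and was higher with ZC3H7A than with ZC3H7B (0.68). Its fall with ZC3H7A was -0.35 with the trend removed. RPTOR, the mTORC1 scaffold, rose by 0.69 with ZC3H7A (0.42 with the trend removed) and by 0.56 with ZC3H7B on the log2 scale. SEC13, a coat protein that is also part of a GATOR complex, rose by 0.57 with ZC3H7A and 0.47 with ZC3H7B. NPRL2, a subunit of GATOR1, rose by 0.71 with ZC3H7A and 0.65 with ZC3H7B. None of these 3 differed past the threshold between the proteins. The Rag GTPase RRAGD fell with both, at -0.32 with ZC3H7A and -0.63 with ZC3H7B. In DD the Rag GTPase RRAGC (limma log2 fold change 0.75 ± 0.0892 SE, adjusted p = 8.73e-05) and LAMTOR5 (0.62 ± 0.0760 SE, adjusted p = 1.11e-04), part of the Rag anchor on the lysosome, rose. Whether ATF4 or differences between the cell lines play a part in the MTOR and SESN2 values was not tested.

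The genes whose levels ran most like 3 of the carriers were taken over the 15 libraries, centred within each experiment, among 12719 genes with a mean of at least 100. For SLC7A5 they were GSR, glutathione reductase (Pearson r = 0.993), RPUSD3 (0.993) and the nucleoside carrier SLC29A1 (0.992). SLC7A11 ran most like SLMO2 (0.985), the tRNA exporter XPOT (0.981) and DDHD2 (0.981), and SLC7A1 most like PFDN5 (0.990), KLHDC3 (0.990) and citrate synthase CS (0.989). The points share the 5 groups, so r mostly restates the group means.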

How the data were processed

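RNA-seq was measured in 15 libraries, 3 in each of 5 groups. The authors deposited 1 table of normalized counts for 55773 genes, handled here as a signal. The build hg19 and the tools DESeq2, HTSeq and STAR 2.7.10b appear in what is known of the upstream work, per the submitters' processing notes, with no roles, settings or gene annotation given, so whether reads were counted by strand is not stated. Divided by the step of its library, 100% of the values came within 0.01 of a whole number, so whole reads were recovered from the authors' table for edgeR and DESeq2. Genes reaching 10 in 3 or more libraries of a fit were tested on log2(value + 1) with limma 3.58.1 in R 4.3.3 (trended empirical Bayes, two-sided, Benjamini-Hochberg over all tested genes), with 1 fit for the 9 overexpression libraries and 1 for the 6 depletion libraries. Fold changes are on that scale, which understates the change of low genes. Genes were called at an adjusted p under 0.05, and a second rule added a change of at least 2-fold. The scripts were tested on simulated data.

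Alternatives were a pseudocount of 5, no filter, TMM scaling, library totals, edgeR 4.0.16 and DESeq2 1.42.0 on recovered reads, a replicate block, removal from each library of its trend with codons ending in A or T (a natural spline with 4 degrees of freedom), other sets of libraries in the fit, and each library left out in turn. Of the row names, 34274 matched a current symbol of GENCODE 29 on GRCh38, 1372 an older one and 20127 none, the last with 28 date-like or repeated names that were not matched. An hg19 annotation was not used here, so coordinates and exon lengths are those of GRCh38. Codon shares come from the longest complete coding sequence of each of 19077 genes.

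The transporters, the 3 other gene lists and the tests were chosen with earlier results of these data known. Named genes were the 10 transporters, ZC3H7A and ZC3H7B, near copies and neighbours, up to 4 called members of each other list per comparison with the lowest adjusted p (mean of 100 or more in whichever group was higher), and the 3 genes most like SLC7A5, SLC7A11 and SLC7A1. A gene of the regulator list is not reported here and was left out of its counts.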

Additional observations from a re-analysis of the deposited data

How the results depend on the processing

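Of 540 values of a transporter under an alternative, 497 kept their direction and their side of the threshold, 28 lost the call, 9 gained one and 6 changed sign. The 6 rises in each overexpression and the falls of SLC7A11, SLC6A9, SLC7A1, SLC7A5, SLC38A2 and SLC1A5 in DD were called under all 15 alternatives each. With ZC3H7A, removing the codon-ending trend reduced the count of transporters called lower to 0, turned SLC38A2 to 0.0239 and reduced all genes called lower to 4787. With ZC3H7B it left 1 transporter lower. Between ZC3H7A and ZC3H7B, 1 transporter was lower with library totals, 1 with edgeR, 2 with the trend removed and 0 to 1 with a library left out. In DD, all genes called higher numbered 1561 to 3564 with a library left out. Between the overexpressions, left-out libraries gave log2 differences of -0.0409 to 0.0397 for SLC7A1, -0.0195 to 0.354 for SLC7A11, -0.00335 to 0.163 for SLC38A1 and -0.0615 to 0.169 for SLC38A2, and each changed sign without ZC3H7A replicate 3, SLC7A1 also without ZC3H7B replicate 1 (0.0098). Library totals moved the median of all genes by -0.13 with ZC3H7A and -0.10 with ZC3H7B, and removal of the trend by 0.11 in each. Other causes of these shifts were not tested.

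Replicate numbers did not pair the samples throughout: same-numbered libraries had r of -0.27 to 0.72, over 0.1 in 4 of 12 pairs, and 8 of 24 matches were best with their own number. Between ZC3H7A and ZC3H7B, r was 0.54 for replicates 1, 0.08 for replicates 2 and 0.72 for replicates 3. ZC3H7A replicate 2 with ZC3H7B replicate 1 had 0.56, so pairing of these groups is not settled. With the number as a block, 6158 genes were higher and 7324 lower with ZC3H7A, 5678 and 6704 with ZC3H7B, 4411 and 3890 between them, and 2168 and 2374 in DD. SLC3A2 in DD was the only transporter whose call changed under the block.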
